A study of Homo sapiens with 44 samples.

Results

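The comparison set 4 libraries collected 6 h after release from a thymidine block against 4 libraries collected at 3 h, out of 44 libraries in the series. All came from IMR5/75, a human neuroblastoma line with an amplified MYCN gene, which carried a tetracycline-inducible short hairpin RNA (shRNA) against MYCN. In the Tet minus arm no tetracycline was given and the hairpin was not induced, and in the Tet plus arm tetracycline was given. Every group had gone through the same 18 h of thymidine, which stalls DNA synthesis and gathers cells at the border of G1 and S, followed by washout. Each arm had 2 biological replicates at 3 h and 2 at 6 h. All libraries of replicate 1 at these times ran in lane 8 and all of replicate 2 in lane 4, so that each 6 h library could be read against the 3 h library of the same arm, replicate and lane. No library here had tetracycline with a control hairpin, the labels do not say whether the line is 1 clone, and the files hold no measure of DNA content, so the phases are those that the timing implies.

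A cell that enters S phase copies its DNA once, and for this it needs the licensing factors, cyclin E, polymerases and nucleotide enzymes whose genes are switched on at the G1/S border by E2F factors. Histone mRNAs are made and held in S phase and are broken down as replication ends. In G2 the genes of mitosis follow, among them cyclin B, CDK1, the polo and aurora kinases, centromere proteins and kinesins; many of their promoters carry a CHR element and CCAAT boxes bound by the DREAM and B-MYB/FOXM1 complexes and by NF-Y. In neuroblastoma with amplified MYCN the G1/S programme is driven hard, and lowering MYCN is known to slow the cycle.

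The 8 libraries held 13 to 22.9 M (mega) gene counts (median 19.4 M), with 15840 to 16366 genes detected. MYCN, the targeted transcript, stood at 1362 and 1437 CPM at 3 h and 1375 and 1203 CPM at 6 h in Tet minus, and 1253 and 1050.0 CPM at 3 h and 1003 and 1006 CPM at 6 h in Tet plus. Its change with time did not pass the threshold in the fit over both arms (log2 fold change -0.16, SE 0.0977, adjusted p = 0.314), with -0.12 in Tet minus and -0.19 in Tet plus on the log2 scale. The sympathetic lineage marker PHOX2A was present in every library (102 to 301 CPM, counts scaled by library size as edgeR gives them), while TH, the first enzyme of catecholamine synthesis, had at most 3 counts. SOX10, KRT14, CD3E and HBB, which define Schwann, epithelial, T and red blood cells, had 0 counts in all 8. The summed level of 12 epithelial markers was 15.2 to 24.3 CPM at 3 h and 15.4 to 21.6 CPM at 6 h, that of 12 blood cell markers 3.02 to 3.32 and 2.65 to 3.49 CPM, and that of 18 mesenchymal and Schwann-like markers 843 to 1480 and 827 to 1360 CPM. ERCC spike-in transcripts took 0.736% to 3.90% of counts, with the 2 highest shares, 3.00% and 3.90%, in the replicate 2 libraries of 3 h. The share was lower at 6 h in 3 of 4 pairs (mean log2 difference -0.59 ± 0.989, SD, n = 4 pairs, 2-sided exact permutation p = 0.375, where 0.125 is the smallest that 4 pairs can give). If libraries are scaled to the ERCC counts the median log2 fold change of all genes moves from -0.02 to 0.62. Directions below are therefore relative to the bulk of the transcripts, and absolute amounts of RNA per cell cannot be told from these libraries.

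Between 3 and 6 h, 78 of 173 genes of mitosis rose, and 27 of 50 genes of the G1/S border, 27 of 45 cluster histone genes and 19 of 31 early response genes fell. Of 13937 genes tested in the fit over both arms, 832 (5.97%) were higher and 706 (5.07%) were lower at 6 h (quasi-likelihood F test of edgeR, p adjusted by Benjamini and Hochberg's method over all genes, threshold 0.05; every adjusted p for a gene below is of this kind). A change of at least 2-fold was seen for 65 of the higher and 95 of the lower genes. All 4 libraries of 6 h lay above all 4 of 3 h for 726 genes (5.21%) and below them for 537 (3.85%). Leaving out 1 library gave from 220 higher and 172 lower (without Tet plus 3 h replicate 1) to 1029 and 919 (without Tet minus 6 h replicate 2). Without the term for replicate and lane 274 and 202 passed, and with ERCC scaling, under which standard errors grew, 1 gene passed in each direction and 442 of the 1538 called genes had the opposite sign. In these bulk samples, more cells in a phase and more transcript in each cell cannot be told apart.

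The largest rise among genes whose mean log2 CPM was 3 or more belonged to PIF1, a DNA helicase. It stood at 12.8 and 10.9 CPM at 3 h and 68.9 and 29.1 CPM at 6 h in Tet minus, and 9.74 and 6.47 CPM at 3 h and 35.4 and 23.7 CPM at 6 h in Tet plus (log2 fold change 1.91, SE 0.149, adjusted p = 4.77e-05). Next came FAM72D (1.68), TNFAIP8L1 (1.67), the centromeric histone H3 variant CENPA (1.63), the HSP40 co-chaperone DNAJB1 (1.57) and the kinases PLK1 (1.44) and AURKA (1.42). FAM72D is 1 of a family of near-identical copies, so its reads may be shared among them. SGOL2, which protects cohesin at centromeres (1.40), DEPDC1 (1.39), BORA, the activator of PLK1 by aurora A (1.37), DNAJB4 (1.35) and the spindle protein PSRC1 (1.34) completed the 12 highest. Only genes with the same sign in all 4 pairs could be named among these 12, so that agreement was set by the choice. Their 6 h libraries did not overlap the 3 h libraries. At the other end, under the same limits on level and sign, stood ARC (-2.03), FOSL2 (-1.99), DUSP5 (-1.67), NAB2 (-1.66), JUNB (-1.50), FAM212B (-1.48), CCNE2 (-1.28), IER2 (-1.27) and the histone genes HIST1H2AB (-1.26), HIST4H4 (-1.25), HIST1H2AK (-1.24) and HIST3H2A (-1.22). Some called genes outside those limits fell further than ARC.

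**Figure D1:**
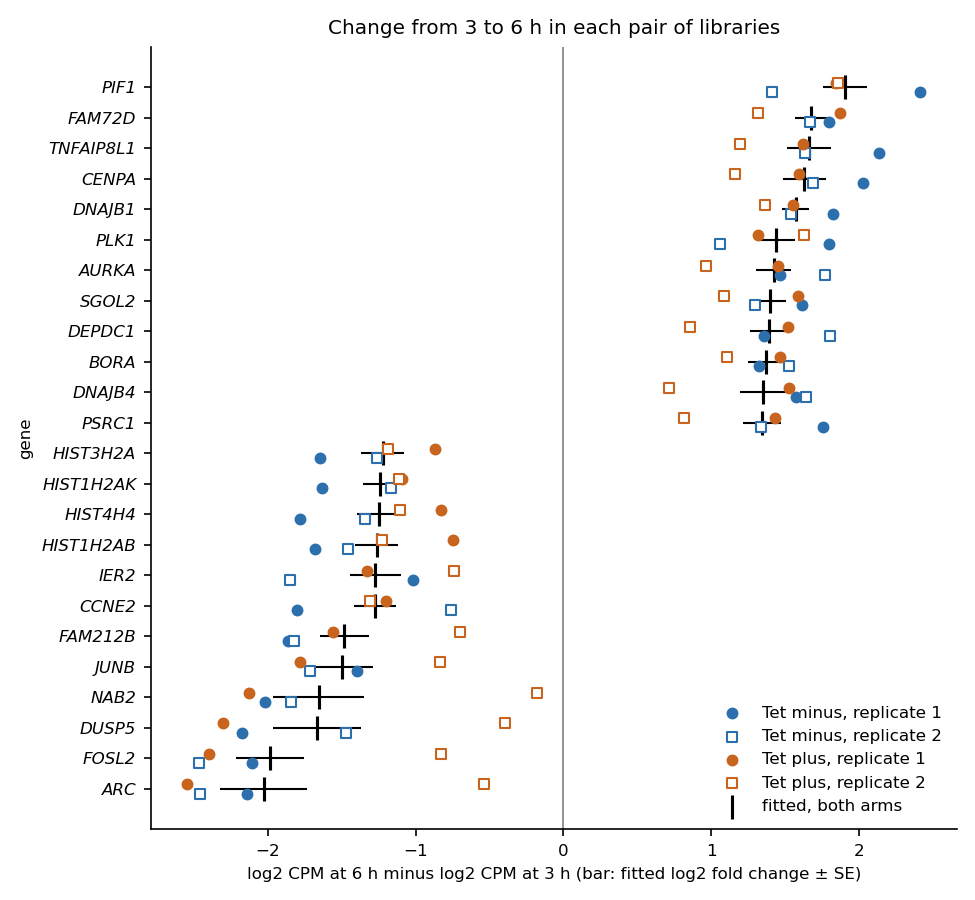
Change from 3 to 6 h, as log2 CPM at 6 h minus log2 CPM at 3 h, for the 12 highest and 12 lowest genes within the limits on level and sign. Circles are replicate 1 and squares replicate 2, blue is Tet minus and orange Tet plus. Black bars are the fitted change over both arms with its SE. The choice of genes puts every point of the upper 12 to the right of 0 and every point of the lower 12 to the left. The Tet plus replicate 2 pair has the smallest fall for ARC, FOSL2, DUSP5, NAB2, JUNB, FAM212B and IER2.

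Of 173 tested genes in 9 lists of mitotic function, 78 rose and 2 fell in the fit over both arms, with a median log2 fold change of 0.29 against -0.02 over all genes tested. The kinases and cyclins that start mitosis had the highest median of the 9 lists. Of 19 such genes 12 rose and 0 fell (median 0.72). CCNB1, the B cyclin that activates CDK1, stood at 186 and 174 CPM at 3 h and 378 and 446 CPM at 6 h in Tet minus, and 154 and 157 CPM at 3 h and 315 and 241 CPM at 6 h in Tet plus. It rose 2.02-fold (log2 fold change 1.01, SE 0.117, adjusted p = 0.000431), and no 6 h library overlapped a 3 h library. PLK1, the polo kinase that promotes entry, stood at 35.2 and 42.5 CPM at 3 h and 123 and 88.6 CPM at 6 h in Tet minus, and 30.2 and 20.5 CPM at 3 h and 75.5 and 63.6 CPM at 6 h in Tet plus (log2 fold change 1.44, SE 0.126, adjusted p = 8.84e-05). AURKA, the centrosomal aurora kinase, stood at 72.2 and 69.3 CPM at 3 h and 200 and 236 CPM at 6 h in Tet minus, and 61.6 and 67.2 CPM at 3 h and 169 and 132 CPM at 6 h in Tet plus (log2 fold change 1.42, SE 0.12, adjusted p = 7.37e-05). For AURKA both Tet minus libraries were above both Tet plus libraries at each time, with the 3 h libraries close together. Its replicate 1 pairs rose by similar amounts (Tet minus 1.47, Tet plus 1.45). The replicate 2 pairs parted (Tet minus 1.77, Tet plus 0.97). Its difference between arms did not pass (-0.41, SE 0.217, adjusted p = 0.954). For PLK1 the fitted rise was slightly larger under Tet plus (1.47, against 1.42 for Tet minus).

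Among the 15 aurora and polo kinases and partners 10 rose, including CDCA8, the chromosomal passenger protein borealin (1.05). One fell, PLK3 (-0.66), a polo family member counted here also as a p53 target and named after its value was seen. The 13 transcription factors of mitotic genes had the lowest median of the 9, with 0 past the threshold in either direction and a median of 0.02. Values for LIN9 and LIN52, core subunits of DREAM, were 0.29 (adjusted p = 0.134) and -0.29 (adjusted p = 0.138), and those for RBL2 and E2F5 were 0.18 (adjusted p = 0.193) and 0.21 (adjusted p = 0.2).

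Of 42 kinetochore and checkpoint genes 17 rose and 0 fell (median 0.21), and of 14 mitotic kinesins 9 rose and 0 fell (median 0.49). CENPE, the kinesin that carries chromosomes to the spindle equator, stood at 104 and 102 CPM at 3 h and 262 and 277 CPM at 6 h in Tet minus, and 100.5 and 106 CPM at 3 h and 254 and 244 CPM at 6 h in Tet plus. Its rise (log2 fold change 1.33, SE 0.0828, adjusted p = 1.68e-05) had the smallest adjusted p, together with DNAJB1, and the replicates of each group lay close together. CENPA stood at 13.5 and 17.1 CPM at 3 h and 55.4 and 55.6 CPM at 6 h in Tet minus, and 13.8 and 13.4 CPM at 3 h and 41.8 and 30.1 CPM at 6 h in Tet plus (log2 fold change 1.63, SE 0.145, adjusted p = 9.34e-05). The checkpoint kinase BUB1 (0.92) and the kinesins KIF14 (1.08), KIF23 (0.93) and KIF20A (1.23) also rose, the last 2 of which act in cytokinesis.

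Of 29 spindle and centrosome genes 22 rose and 0 fell (median 0.64). ASPM, which organises spindle poles, was the most abundant of those named, at 241 and 230.5 CPM at 3 h and 514 and 544 CPM at 6 h in Tet minus, and 241 and 251 CPM at 3 h and 584 and 558 CPM at 6 h in Tet plus (log2 fold change 1.19, SE 0.085, adjusted p = 3.3e-05). FAM83D (1.29) and ARHGAP11A (0.92) rose beside it. Of 13 cytokinesis genes 7 rose, among them the contractile ring scaffold ANLN (0.66) and the abscission factor CEP55 (0.75). Of 19 genes of the anaphase promoting complex and its regulators 5 rose. Those were its activators CDC20 (1.19) and FZR1 (0.42), the ubiquitin conjugating enzyme UBE2C (1.03), the subunit CDC27 (0.69) and the securin gene PTTG1 (0.73). UBE2C stood at 79.7 and 51.7 CPM at 3 h and 171 and 127 CPM at 6 h in Tet minus, and 74.4 and 44 CPM at 3 h and 146 and 72.4 CPM at 6 h in Tet plus, so that Tet plus replicate 2 at 6 h lay below Tet minus replicate 1 at 3 h although it rose within each pair. In the list of condensin, cohesin and topoisomerase II genes 8 of 22 rose, including TOP2A, the decatenating topoisomerase (0.88), NCAPG (0.64), SMC4 (0.48) and the proliferation marker MKI67 (0.96), and 1 fell, NCAPH2 (-0.36). Without Tet plus 3 h replicate 1 the higher count of this last list was 3, and SMC4 no longer passed (adjusted p = 0.0556).

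**Figure D2:**
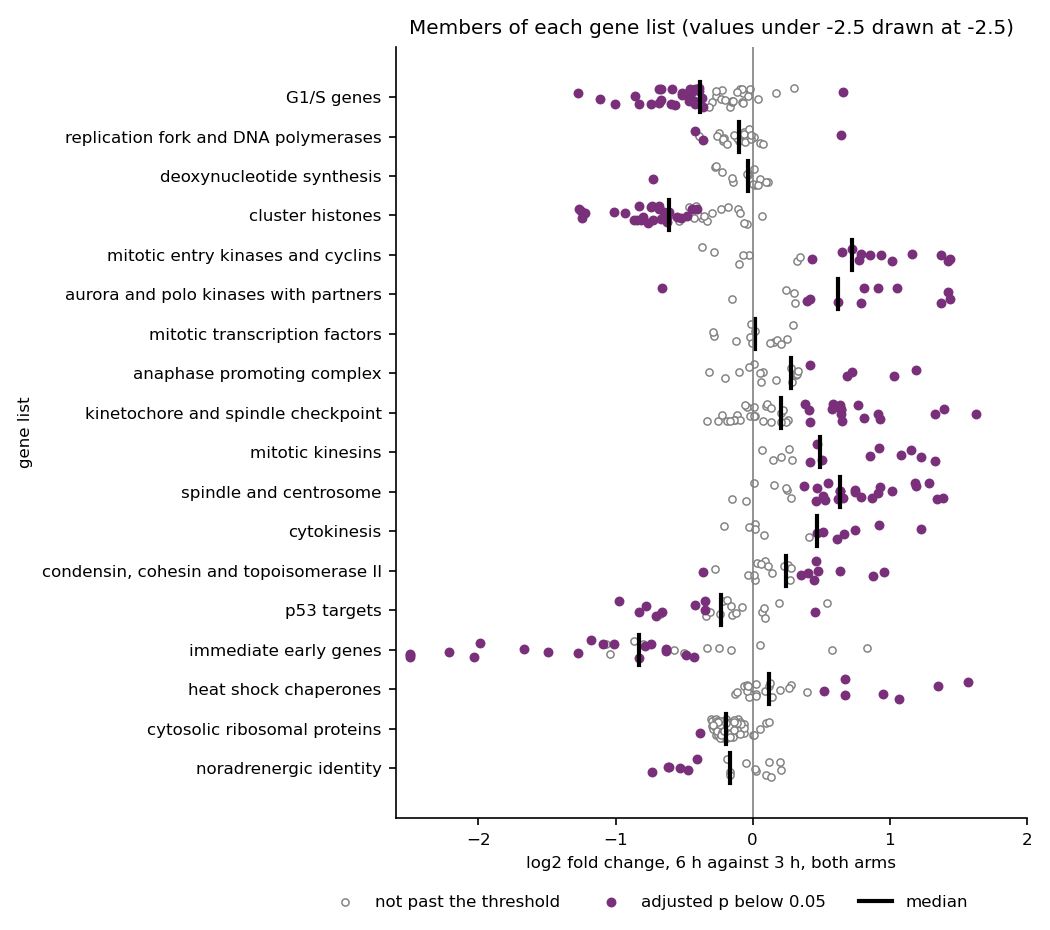
Log2 fold change at 6 h against 3 h over both arms for each tested member of 18 gene lists; filled points passed an adjusted p of 0.05, open points did not, and the black bar is the list's median. Medians of the mitotic lists lie at or above 0.02, those of G1/S genes, cluster histones and immediate early genes at -0.38, -0.61 and -0.83 relative to the gene-count scaling.

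Genes of the G1/S border went the other way. Of 50 tested 27 fell and 1 rose, with a median of -0.38 under gene-count scaling; under ERCC scaling that median was 0.25, below the 0.62 of all genes. Cyclin E2, CCNE2, stood at 93.2 and 57.4 CPM at 3 h and 26.7 and 33.9 CPM at 6 h in Tet minus, and 75.6 and 77.4 CPM at 3 h and 32.8 and 31.1 CPM at 6 h in Tet plus (log2 fold change -1.28, SE 0.14, adjusted p = 0.000334). Tet minus replicate 2 was the lowest of the 3 h libraries, and no library overlapped. E2F2, an activator of the S phase genes, stood at 204 and 178 CPM at 3 h and 101 and 73.4 CPM at 6 h in Tet minus, and 181 and 129.9 CPM at 3 h and 85.4 and 61.4 CPM at 6 h in Tet plus (log2 fold change -1.11, SE 0.0862, adjusted p = 4.67e-05). E2F1, its relative, stood at 349 and 246 CPM at 3 h and 189 and 141 CPM at 6 h in Tet minus, and 342 and 193 CPM at 3 h and 170.2 and 117 CPM at 6 h in Tet plus (log2 fold change -0.86, SE 0.0905, adjusted p = 0.00026). For E2F1 the replicate 1 libraries lay above their replicate 2 partners in each group, yet all 4 libraries of 6 h were below all 4 of 3 h. Cyclin E1, CCNE1 (-1.0), and the licensing factor CDT1 (-0.83) fell as well.

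Of the 6 MCM helicase subunits MCM2 to MCM7, 5 fell and none rose (median -0.42). The 1 gene of the G1/S list that rose was DBF4 (0.66, adjusted p = 0.00527), the activating subunit of the CDC7 kinase, named here because it was the exception. Without Tet plus 3 h replicate 1 the number that fell was 13 in place of 27. For the machinery of the moving fork the counts lay near those of all genes (5.97% higher and 5.07% lower). Of 23 fork and polymerase genes 2 fell, the clamp loader subunit RFC2 (-0.42) and the polymerase delta catalytic subunit POLD1 (-0.36), and 1 rose, the topoisomerase TOP1 (0.64); the polymerase alpha subunit POLA1 had a value of -0.25 (adjusted p = 0.0691). In the 15 genes of deoxynucleotide synthesis the thymidine kinase TK1 fell (log2 fold change -0.73, SE 0.0923, adjusted p = 0.000812) and no other passed, with -0.26, -0.22 and -0.28 for DCTPP1, SHMT1 and DUT (adjusted p = 0.0934, 0.105 and 0.118). TK1 stood at 234 and 227 CPM at 3 h and 146 and 148 CPM at 6 h in Tet minus, and 196 and 153 CPM at 3 h and 107 and 91.7 CPM at 6 h in Tet plus, without overlap. Neither RFC2, POLD1 nor TOP1 passed without Tet plus 3 h replicate 1 (adjusted p = 0.0790, 0.214 and 0.0849), and with ERCC scaling RFC2 and POLD1 had values above 0 (0.22 and 0.27).

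The histone genes of the clusters on the HIST1 to HIST4 loci make mRNAs that end in a stem-loop in place of a poly(A) tail, and the libraries came from total RNA depleted of ribosomal RNA. Of 45 tested 27 fell and 0 rose, with a median of -0.61 under gene-count scaling and 0.04 under ERCC scaling, where all genes had 0.62. As a share of gene counts these genes went from 3.65% to 1.93% and from 2.33% to 1.61% in the replicate 1 and 2 pairs of Tet minus, and from 2.95% to 2.58% and from 1.92% to 1.41% in those of Tet plus. The share was thus lower at 6 h in each of the 4 pairs, and higher in replicate 1 (lane 8) than in replicate 2 (lane 4) in every group; replicate and lane cannot be told apart here.

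HIST1H2AK, a core histone H2A gene, stood at 399 and 248 CPM at 3 h and 129 and 111 CPM at 6 h in Tet minus, and 314 and 183 CPM at 3 h and 147 and 84.5 CPM at 6 h in Tet plus (log2 fold change -1.24, SE 0.114, adjusted p = 0.0001). HIST4H4, a histone H4 gene outside the main cluster, stood at 160.0 and 154 CPM at 3 h and 46.4 and 60.6 CPM at 6 h in Tet minus, and 109.9 and 102 CPM at 3 h and 62 and 47.3 CPM at 6 h in Tet plus (log2 fold change -1.25, SE 0.143, adjusted p = 0.000422). Neither gene's 6 h libraries overlapped its 3 h libraries. By type, 11 of 12 H2A genes fell, 9 of 17 H2B genes, 4 of 5 H3 genes and 3 of 8 H4 genes, while none of the 3 tested linker histone H1 genes did. These genes share sequence, and single values among them are uncertain to that extent. Leaving out the term for replicate and lane left 10 of the 45 past the threshold.

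Among 17 factors that supply or handle histones 3 fell. SLBP, the protein that binds the histone mRNA stem-loop and is itself lost at the end of S phase, had -0.56 (adjusted p = 0.0138), and the 2 subunits of the chromatin assembly factor CHAF1B and CHAF1A had -0.59 and -0.37 (adjusted p = 0.00177 and 0.0158). SLBP and CHAF1A lost the call without any of 3 libraries each, with adjusted p up to 0.0694 and 0.108. NASP, a histone chaperone, had -0.29 (adjusted p = 0.0646).

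Promoters of some of these genes are printed to show where the letters searched lie. The 3 mitotic and 2 G1/S genes were those with the smallest adjusted p among the named genes with a RefSeq promoter, and the chaperone partner CHORDC1 was added after its value and its promoter had been seen. Sequences are from RefSeq on GRCh38.p14, not the hg19 build of the counts, all on the minus strand, from 220 bases before the annotated start to 20 bases from it. Capitals mark matches on either strand to TTTGAA or TTCGAA (CHR) and CCAAT in the mitotic genes, to TTTGGCGC, TTTCCCGC, TTTGCCGC or TTTCGCGC (E2F site) in the G1/S genes, and to GAANNTTC or TTCNNGAA (heat shock element) in CHORDC1.
CENPE, chr4:103198324-103198563: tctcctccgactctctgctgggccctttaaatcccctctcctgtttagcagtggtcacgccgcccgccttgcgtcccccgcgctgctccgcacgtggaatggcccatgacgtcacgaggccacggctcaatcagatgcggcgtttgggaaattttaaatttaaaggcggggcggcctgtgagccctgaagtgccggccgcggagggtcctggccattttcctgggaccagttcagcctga
ASPM, chr1:197146650-197146889: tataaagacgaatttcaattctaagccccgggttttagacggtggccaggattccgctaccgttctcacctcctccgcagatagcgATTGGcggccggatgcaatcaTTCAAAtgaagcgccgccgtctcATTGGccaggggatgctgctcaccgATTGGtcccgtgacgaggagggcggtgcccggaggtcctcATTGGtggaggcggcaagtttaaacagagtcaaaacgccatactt
KIF14, chr1:200620732-200620971: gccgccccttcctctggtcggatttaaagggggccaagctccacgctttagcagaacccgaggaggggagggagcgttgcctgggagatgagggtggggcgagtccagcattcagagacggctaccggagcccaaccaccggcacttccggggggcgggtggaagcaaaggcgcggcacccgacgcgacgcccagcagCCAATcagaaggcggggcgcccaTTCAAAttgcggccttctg
E2F2, chr1:23531214-23531453: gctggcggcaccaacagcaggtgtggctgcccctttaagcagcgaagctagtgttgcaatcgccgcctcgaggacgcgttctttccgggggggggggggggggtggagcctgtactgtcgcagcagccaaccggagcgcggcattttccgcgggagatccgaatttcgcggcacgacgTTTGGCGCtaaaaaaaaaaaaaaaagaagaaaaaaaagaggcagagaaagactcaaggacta
E2F1, chr20:33686366-33686605: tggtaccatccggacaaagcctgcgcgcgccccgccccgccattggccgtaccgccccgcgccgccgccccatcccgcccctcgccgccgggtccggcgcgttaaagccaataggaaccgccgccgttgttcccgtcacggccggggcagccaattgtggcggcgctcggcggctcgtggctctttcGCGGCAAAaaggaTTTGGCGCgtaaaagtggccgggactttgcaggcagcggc
CHORDC1, chr11:90223030-90223269: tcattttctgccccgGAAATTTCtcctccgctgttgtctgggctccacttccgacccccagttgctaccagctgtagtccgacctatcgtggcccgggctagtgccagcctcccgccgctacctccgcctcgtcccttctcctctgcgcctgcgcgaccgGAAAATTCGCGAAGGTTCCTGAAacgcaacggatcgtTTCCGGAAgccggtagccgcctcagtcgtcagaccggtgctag
ASPM holds 1 CHR match and 4 CCAAT matches, KIF14 holds 1 of each, and the CENPE window holds neither of the letters searched. E2F1 holds 2 E2F matches and E2F2 holds 1. E2F1 also holds 3 CCAAT matches, left in lower case because CCAAT was marked in the mitotic genes alone.

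Over the full windows of 250 bases before to 50 after the start, a CHR match was found in 16.6% of all 27305 promoters in the table, in 51.7% of the 147 matched among the 173 mitotic genes, and in 7.32% of the 41 matched among the 50 G1/S genes. Of the 832 genes that rose, 702 had a promoter and 23.5% of these held a CHR match. For the E2F letters the shares were 3.33% of all promoters, 11.6% of the mitotic and 48.8% of the G1/S promoters. CCAAT was found in 35.7% of all promoters and in similar shares of the mitotic (60.5%) and G1/S promoters (63.4%). Under 80% of the genes that fell and of all genes tested had a promoter in the table, so the same check over those sets is void. CHR and heat shock matches can share the letters GAA or TTC. A match is a string of letters, not a binding site shown by these data.

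Early response genes, which are switched on within minutes by growth signals and then decay, form the next list. Of 31 tested 19 fell and 0 rose (median -0.83, and -0.23 with ERCC scaling). FOSL2, an AP-1 subunit, stood at 32 and 48.8 CPM at 3 h and 7.35 and 8.76 CPM at 6 h in Tet minus, and 27.3 and 17.2 CPM at 3 h and 5.08 and 9.66 CPM at 6 h in Tet plus (log2 fold change -1.99, SE 0.232, adjusted p = 0.000446), with no overlap. JUNB, another AP-1 gene, stood at 137 and 137 CPM at 3 h and 51.9 and 41.7 CPM at 6 h in Tet minus, and 141 and 43.4 CPM at 3 h and 40.8 and 24.3 CPM at 6 h in Tet plus (log2 fold change -1.50, SE 0.21, adjusted p = 0.00146). In JUNB 1 library of 3 h, Tet plus replicate 2, was already near the level of 6 h, and the groups overlapped. NAB2, a co-repressor of the EGR factors, is outside this list and not in its counts. It showed the same library apart, at 326 and 288 CPM at 3 h and 80.6 and 80.1 CPM at 6 h in Tet minus, and 303 and 57.4 CPM at 3 h and 69.1 and 50.6 CPM at 6 h in Tet plus (log2 fold change -1.66, SE 0.308, adjusted p = 0.00653). ARC, a cytoskeletal protein of active neurons, stood at 22.8 and 24.3 CPM at 3 h and 5.08 and 4.33 CPM at 6 h in Tet minus, and 26.1 and 7.1 CPM at 3 h and 4.38 and 4.86 CPM at 6 h in Tet plus (log2 fold change -2.03, SE 0.295, adjusted p = 0.00177). The stress factor ATF3 (-1.18), the MAP kinase phosphatase DUSP5 and IER2 also fell (adjusted p = 0.000336, 0.00527 and 0.00123). The summed level of the 33 listed genes was 966, 1062 and 1021 CPM in the other 3 libraries of 3 h, 641 CPM in Tet plus 3 h replicate 2, and 543 to 602 CPM at 6 h. Without that library 22 genes fell, and without Tet plus 3 h replicate 1 10 fell and NAB2 did not pass (adjusted p = 0.0557).

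CDKN1A, which encodes the CDK inhibitor p21 and is a main target of p53, fell by nearly the same amount in both arms from different levels. It stood at 309 and 274 CPM at 3 h and 147 and 133 CPM at 6 h in Tet minus, and 423 and 358 CPM at 3 h and 203 and 216 CPM at 6 h in Tet plus (log2 fold change -0.97, SE 0.0912, adjusted p = 0.000112). At each time both Tet plus libraries lay above both Tet minus libraries, and within each arm the 6 h libraries lay below those of 3 h. Of 24 p53 targets 8 fell and 1 rose (median -0.23, and 0.41 with ERCC scaling), among them GADD45A (-0.70). Without Tet plus 3 h replicate 1 the number that fell was 3. CDKN3, a phosphatase that acts on CDKs, rose (0.72), and CDKN1B, the gene of p27, had 0.39 (adjusted p = 0.0484), a call lost without 6 of the 8 libraries in turn. Of the 13 G1 cyclins and kinases 5 fell. Among 31 Fanconi and homologous recombination genes 2 rose (6.45%) and 4 fell (12.9%), against 5.97% and 5.07% of all genes tested. FANCM, the fork remodelling helicase, was at 0.81 and FANCE at -0.56. In this list the number that fell was 1 without Tet plus 3 h replicate 1.

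Of 26 heat shock chaperones and partners 7 rose and 0 fell, though the list's median was only 0.12. DNAJB1 stood at 59.4 and 64.1 CPM at 3 h and 211 and 186 CPM at 6 h in Tet minus, and 55.3 and 54.7 CPM at 3 h and 162 and 141 CPM at 6 h in Tet plus (log2 fold change 1.57, SE 0.0935, adjusted p = 1.68e-05). Its 4 libraries of 3 h lay close together, and the groups did not overlap. DNAJB4 rose (1.35), as did CHORDC1, an HSP90 partner, at 62.7 and 78 CPM at 3 h and 114 and 114 CPM at 6 h in Tet minus, and 53 and 78.4 CPM at 3 h and 96.3 and 106 CPM at 6 h in Tet plus (log2 fold change 0.67, SE 0.1, adjusted p = 0.00196). HSPA1B, the inducible HSP70, stood at 104 and 97.7 CPM at 3 h and 239 and 249 CPM at 6 h in Tet minus, and 95.1 and 95.5 CPM at 3 h and 157 and 137 CPM at 6 h in Tet plus (log2 fold change 0.95, SE 0.127, adjusted p = 0.00113). Its near-identical copy HSPA1A was counted at only 1.04 to 4.93 CPM, so the split of reads between the copies is uncertain. The heat shock letters were in 8 of the 25 chaperone promoters matched (32.0%) and in 13.7% of all promoters. Among the 702 promoters of all genes that rose, 11.3% held these letters.

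**Figure D3:**
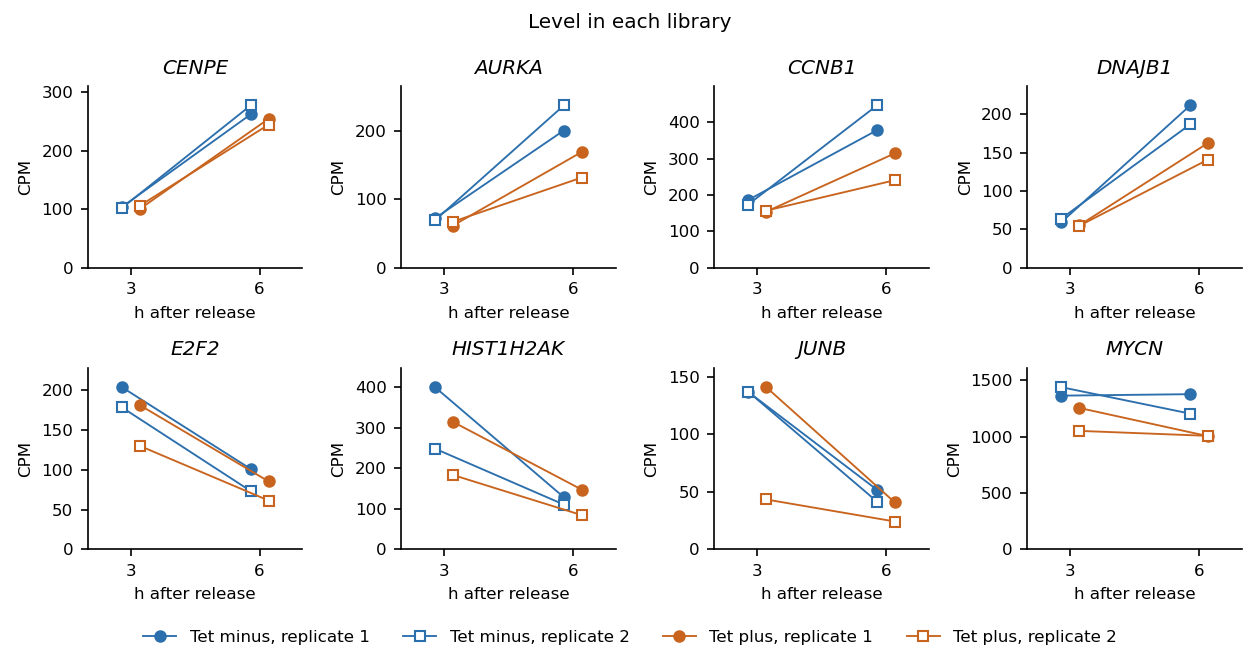
CPM in each of the 8 libraries for 8 genes, with lines joining the 3 h and 6 h libraries of the same arm and replicate; all axes start at 0. Every line rises for CENPE, AURKA, CCNB1 and DNAJB1 and falls for E2F2, HIST1H2AK and JUNB, where Tet plus replicate 2 starts at 43.4 CPM; the MYCN lines stay between 1003 and 1437 CPM.

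Counts for the other gene lists stand against 5.97% higher and 5.07% lower among all genes tested. Of 57 ribosome biogenesis genes 4 rose (7.02%, near the share of all genes) and 0 fell, among them POLR1B, the second largest subunit of RNA polymerase I (0.57), and DDX10 (0.52). Of 76 ribosomal protein genes 1 fell, but 23 fell without Tet minus 6 h replicate 2. Of 17 noradrenergic identity genes 6 fell and 0 rose, including the norepinephrine transporter SLC6A2 (-0.62) and GATA2 (-0.73), a count of 1 without Tet plus 3 h replicate 1. Of 14 genes of DNA methylation and chromatin maintenance 5 rose, among them DNMT3B (0.48), SUZ12 (0.55) and SUV420H1 (0.47), and 1 fell, UHRF1 (-0.46); without Tet plus 3 h replicate 1 the number that rose was 1. Within the MYC network of 13 genes 2 fell and 2 rose, among them MXD4, an antagonist that competes for MAX (-0.69), and MGA (0.41). The glucose transporter SLC2A1 fell (log2 fold change -0.80, SE 0.0912, adjusted p = 0.00042) with 1 other of 18 glycolysis genes, PFKL (-0.43). In the cholesterol list of 23, 1 rose and 2 fell, DHCR7 (-0.41) and STARD4. Of 25 genes of ATF4 and the unfolded protein response 2 rose, including HSP90B1 (0.43), and 3 fell, including TRIB3 (-0.67). Of 12 interferon genes IFIT1 rose (1.20), at 0.624 to 1.91 CPM at 3 h and 1.29 to 3.36 CPM at 6 h, and IRF1 fell (-0.86). In 28 neuronal genes 1 fell, while DCX had 0.39 (adjusted p = 0.0646). None of 12 mesenchymal, 3 epithelial and 1 blood cell markers tested, 6 abundant non-coding RNAs and 13 small nucleolar RNA host genes passed, the smallest adjusted p among them being 0.134 for SCARNA2. Of 106 box C/D small nucleolar RNAs 5 rose (4.72%, below the share of all genes), including SNORD76 (0.63) and SNORD27 (1.05), and of 96 H/ACA RNAs 1 fell, SCARNA5 (-0.46). All small nucleolar RNAs together took 0.294% to 0.376% of counts in lane 8 and 0.412% to 0.651% in lane 4.

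The arms were then taken alone. In Tet minus 188 genes (1.35%) were higher and 174 (1.25%) lower at 6 h, and in Tet plus 108 (0.775%) were higher and 56 (0.402%) lower. Of the 362 genes called in Tet minus all 362 had the same sign in Tet plus, and 117 (32.3%) also passed there. Of the 164 called in Tet plus all 164 had the same sign in Tet minus, and 117 (71.3%) passed. Of all 13937 genes tested 9596 (68.9%) had the same sign in both arms. No gene passed in both arms with opposite signs. Both arms share the replicate term and the estimate of spread but no library. These counts rest on few libraries: without Tet plus 3 h replicate 1 no gene passed in Tet plus in either direction, and without the term for replicate and lane 19 and 5 genes passed in Tet minus and 3 and 0 in Tet plus.

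The test of the difference between the arms itself called 0 of 13937 genes (smallest adjusted p = 0.954), with 367 genes at an unadjusted p below 0.05; DESeq2 also called 0, with 210 at that level. With 2 libraries a group and 3 residual degrees of freedom this does not show that the arms change alike. Across all genes tested the log2 fold changes of the arms had a Pearson r of 0.557, and of 0.652 over the 10254 genes whose mean log2 CPM was 3 or more, a description across genes, which are not independent replicates.

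**Figure D4:**
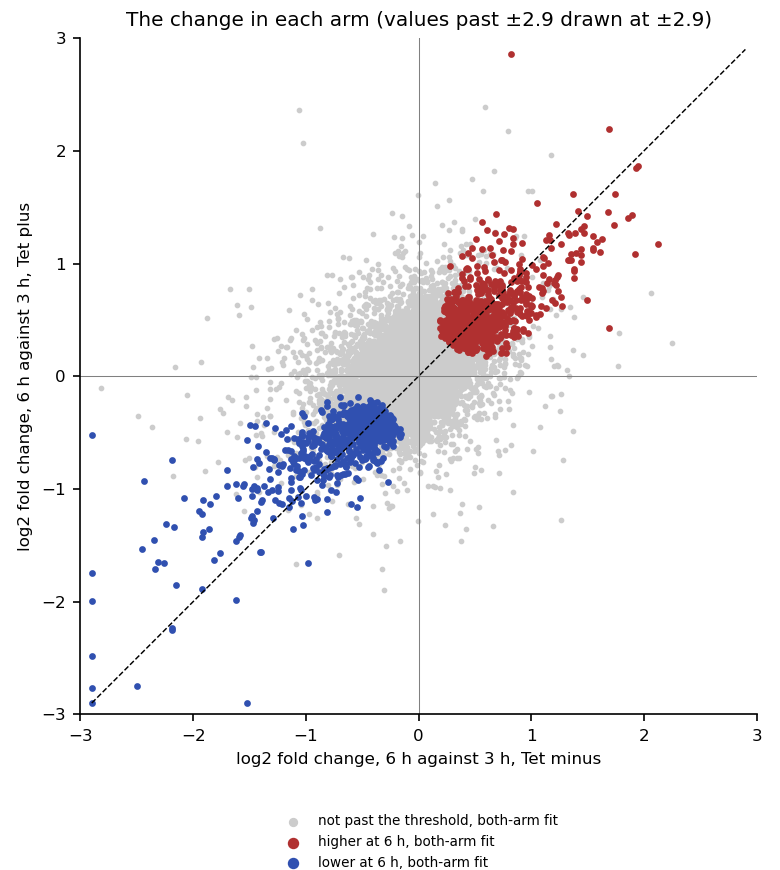
Log2 fold change at 6 h against 3 h in Tet plus (vertical) against Tet minus (horizontal) for the 13937 genes tested; red and blue are genes higher and lower in the fit over both arms, grey the rest, and the dashed line marks equal change. The 1538 called genes were chosen in a fit that pools the arms and lie in the upper right or the lower left field, where 9596 of all genes lie.

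Among gene groups, 60 of the 173 mitotic genes rose in Tet minus and 33 in Tet plus, with medians of 0.36 and 0.26, and none fell in either. The change was larger in Tet minus for 111 of the 173, against 6617 of all 13937 genes, and 0 of the 173 passed the test of the difference. The summed spindle and centrosome genes rose from 2684 to 4518 and from 2651 to 4525 CPM in Tet minus. In Tet plus they rose from 2692 to 4365 CPM in replicate 1 and only from 2655 to 3749 CPM in replicate 2. The condensin, cohesin and topoisomerase II list showed no such smaller rise in Tet plus replicate 2 (4486 to 5795 CPM). CCNB1 changed by 1.20 in Tet minus and 0.83 in Tet plus (difference -0.37, SE 0.22, adjusted p = 0.954). Its replicate 1 and 2 pairs rose by 1.02 and 1.36 in Tet minus and by 1.03 and 0.62 in Tet plus. ASPM changed by 1.17 in Tet minus and 1.21 in Tet plus, and KIF23 by 0.90 in Tet minus and 0.95 in Tet plus. Among G1/S genes 10 fell in each arm, with medians of -0.36 in Tet minus and -0.40 in Tet plus. E2F2 fell by nearly equal amounts (-1.15 in Tet minus and -1.08 in Tet plus), as did CCNE2 (-1.29 in Tet minus and -1.26 in Tet plus). Of the cluster histones 21 fell in Tet minus and 4 in Tet plus (medians -0.77 and -0.42). The larger change was in Tet minus for 42 of 45 (6617 of all 13937 genes), and 0 of the 45 passed the test of the difference. Summed over 73 such genes, tested or not, replicate 1 went from 37550 to 19000 CPM in Tet minus and 29480 to 24930 in Tet plus. Replicate 2 went from 24130 to 16820 CPM in Tet minus and 19050 to 13440 in Tet plus, so the arms parted mainly in replicate 1. Of the early response genes 10 fell in Tet minus and 4 in Tet plus (medians -1.02 and -0.57), where Tet plus 3 h replicate 2 is the library that stood apart. The ribosomal protein genes had medians of -0.04 in Tet minus and -0.33 in Tet plus, with 0 past the threshold in either arm. Here the change was larger in Tet plus for 74 of 76 and in Tet minus for 2, and 0 passed the test of the difference. Summed over 78 such genes, replicate 1 went from 59580 to 50480 CPM in Tet minus and 54810 to 47010 in Tet plus. Replicate 2 rose from 56280 to 61540 CPM in Tet minus and fell from 61860 to 44720 in Tet plus, so the arms parted in replicate 2. Among the G1/S genes the change was larger in Tet plus for 32 of 50 and in Tet minus for 18. Over all 13937 genes it was larger in Tet plus for 7315.

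The 6 smallest p-values for a difference between arms belonged to LOC728640, SNORA80, SNORD105B, HSPA1B, LOC646214 and HIST2H2BE, each with an adjusted p of 0.954. HSPA1B rose in both arms, by 1.28 in Tet minus and 0.62 in Tet plus on the log2 scale (unadjusted p = 0.00366 for the difference). HIST2H2BE, an H2B gene that also makes a polyadenylated mRNA, stood at 3667 and 1277 CPM at 3 h and 1194 and 671 CPM at 6 h in Tet minus, and 2495 and 1101 CPM at 3 h and 1844 and 786 CPM at 6 h in Tet plus, with changes of -1.27 in Tet minus and -0.46 in Tet plus. In it the replicate 1 libraries lay above their replicate 2 partners in every group, and the arms' changes were in the same direction.

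Set within the first cycle (CPM scaled over the libraries of 0 to 14 h, given as group means of 2 libraries), the step from 3 to 6 h is described for 5 genes. CENPE was at 118 and 102 CPM at 0 and 3 h in Tet minus, 267 CPM at 6 h and 474 CPM at 8 h, and in Tet plus its highest mean, 469 CPM, came at 10 h. HIST1H2AK went from 38.6 CPM at 0 h to 320 CPM at 3 h and back to 119 CPM at 6 h and 58.2 CPM at 8 h in Tet minus. FOSL2 went from 11.4 CPM at 0 h to 39.9 CPM at 3 h and 7.99 CPM at 6 h in Tet minus, and from 10.8 to 22.1 and 7.29 CPM in Tet plus. CCNE2 was 89.5 CPM at 0 h and 74.5 CPM at 3 h in Tet minus and reached 19.2 CPM at 8 h. DNAJB1 had been higher at 0 h (118 CPM in Tet minus) than at 3 h (61.0 CPM), before the 197 CPM of 6 h. Libraries of 8 to 14 h carry other lane numbers than those of 0 to 6 h, and these later levels are given as values without a test.

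**Figure D5:**
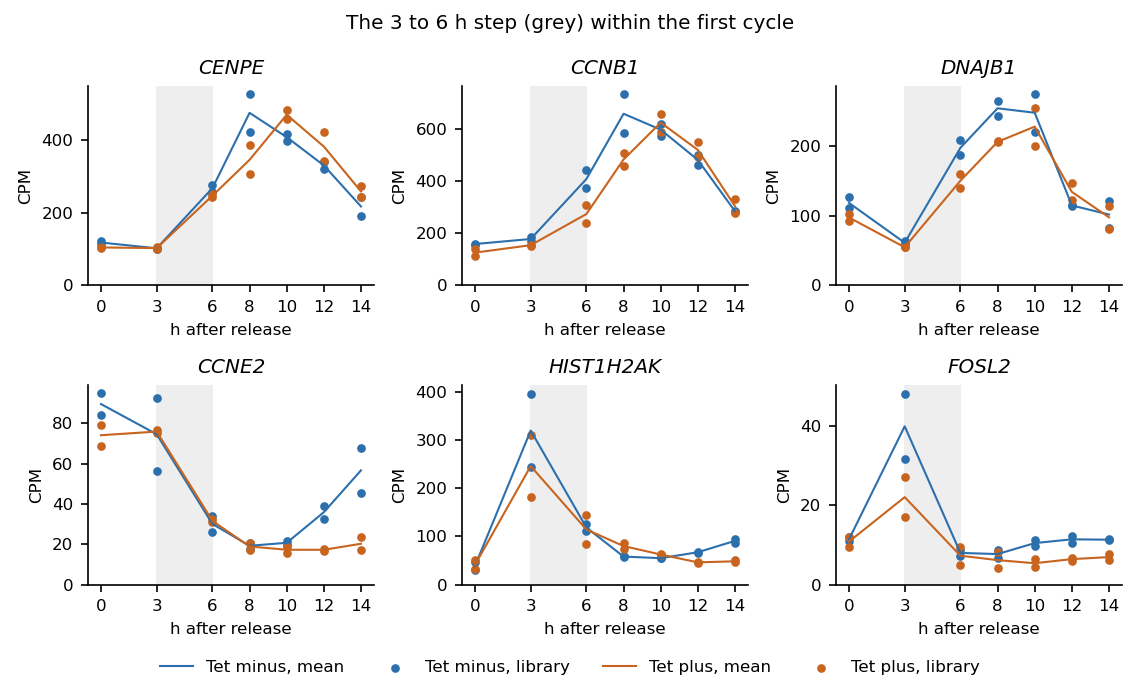
CPM of 6 genes from 0 to 14 h after release in Tet minus (blue) and Tet plus (orange); points are libraries, lines join the means of 2, and grey marks the step from 3 to 6 h. CENPE and CCNB1 climb through the grey band toward 8 or 10 h, CCNE2 falls through it, and HIST1H2AK and FOSL2 come down from a peak at 3 h.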

How the data were processed

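The authors deposited whole-number read counts per gene for 44 libraries, not normalised. Per the labels' protocols, ERCC mix 1 was added to total RNA, ribosomal RNA was removed, and libraries kept the strand. Per the submitters' processing notes the tools were TopHat2 2.0.5 and HTSeq with the hg19 build; neither the annotation nor the strand setting is given in the sources used here, so antisense or overlapping genes may share reads.

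The 8 libraries of 3 and 6 h were used, with 23367 gene rows; the 92 ERCC rows were kept out of library sizes and tests, and 5272 genes had 0 counts in these libraries. The gene counts went into edgeR 4.0.16 (R 4.3.3), with filterByExpr on the groups, TMM factors, glmQLFit and glmQLFTest. The fit over both arms had terms for arm, replicate number and time (4 residual degrees of freedom). Changes within each arm and their difference came from 1 fit with 4 group means and replicate number (3 residual degrees of freedom). P-values were adjusted by Benjamini and Hochberg's method over the 13937 genes tested (threshold 0.05). A standard error (SE) is the size of the log2 fold change over the root of its F. CPM use TMM library sizes, and log2 CPM a prior count of 2. With 13 to 22.9 M counts a library, replicate spread and not counting error limits precision for all but low genes. The fits were run on simulated counts with known changes between the times and no effect of arm, replicate or lane. That run therefore does not bear on how far the calls rest on the replicate term.

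Replicate numbers pair the libraries, since the labels give each number 1 lane at these times. Deviations of same-numbered libraries from their group means correlated between all pairs of groups (lowest r 0.204, median 0.506, over 10254 genes). Between replicates the chi-square per gene was 33.2 to 46.7, above counting noise, so none was counted as a duplicate. Nothing in the labels says how the replicates were separated beyond calling them biological, and p-values measure the spread between these libraries.

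Named genes are MYCN, the 12 highest and 12 lowest fold changes past the threshold whose mean log2 CPM was 3 or more and whose sign was shared by all 4 pairs, up to 4 members of each cell cycle list and 2 of each other list by adjusted p, and the 6 smallest interaction p-values; others are marked or are exceptions to a count, and a few genes that the rule or a count would name are not reported here. The comparison, the lists and the alternatives were chosen with earlier results of these data known, and list counts carry no test. Alternatives were the replicate term, DESeq2 1.42.0, RLE factors, ERCC scaling, no filter, more libraries in the fit, and each library left out. Promoters are from RefSeq (GRCh38.p14), matched by symbol for 10720 of 13937 genes.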

Additional observations from a re-analysis of the deposited data

Results flagged for a closer look

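LOC728640, SNORA80 and SNORD105B are among the 6 genes with the smallest p-values for a difference between arms. In each, both pairs of Tet minus moved one way and both pairs of Tet plus the other. They are not a count over all genes tested, of which 9596 of 13937 (68.9%) had the same sign in both arms. LOC728640 stood at 0.451 and 0.578 CPM at 3 h and 0.227 and 0.274 CPM at 6 h in Tet minus, and 0.192 and 0.182 CPM at 3 h and 0.649 and 0.961 CPM at 6 h in Tet plus, and its change in Tet plus minus that in Tet minus was 3.10 on the log2 scale (unadjusted p = 0.0015). SNORA80, an H/ACA small nucleolar RNA, stood at 2.3 and 4.97 CPM at 3 h and 2.58 and 10.8 CPM at 6 h in Tet minus, and 1.68 and 12.9 CPM at 3 h and 0.757 and 4.7 CPM at 6 h in Tet plus, with a difference of -1.99 (unadjusted p = 0.00204). SNORD105B, a box C/D small nucleolar RNA, stood at 1.58 and 1.45 CPM at 3 h and 1.82 and 2.28 CPM at 6 h in Tet minus, and 1.44 and 2.32 CPM at 3 h and 0.703 and 0.747 CPM at 6 h in Tet plus, with a difference of -1.78 (unadjusted p = 0.00271). None passed the test of the difference between arms over all genes (adjusted p = 0.954 for each, edgeR's quasi-likelihood test). LOC728640 and SNORD105B rest on few counts, and SNORA80 ranged from 0.757 to 12.9 CPM over the libraries. For SNORA80 the replicate 2 library was above the replicate 1 library in every group, as was the share of small nucleolar RNAs in lane 4; its part in the result was not tested.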

How the results depend on the processing

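Named genes past the threshold over both arms kept their sign under every alternative but ERCC scaling, and the test of the difference between arms called 0 genes in each. Main counts were 832 higher and 706 lower over both arms, 188 and 174 in Tet minus, and 108 and 56 in Tet plus. With no replicate block they were 274 and 202, 19 and 5, and 3 and 0. Of the 86 named genes past the threshold 18 then lost the call. With a replicate block within each arm the counts were 59 and 50 in Tet minus and 18 and 5 in Tet plus. DESeq2 gave 309 and 230 in Tet plus. With no low-count filter they were 296 and 315 in Tet minus and 319 and 205 in Tet plus, with the 12 libraries of 0 to 6 h 367 and 303 in Tet minus and 285 and 193 in Tet plus, and with all 44 libraries and no replicate block 293 higher in Tet minus and 246 and 100 in Tet plus. The share of higher among called genes was 63.0% in that last fit and 50.6% to 58.3% in the others, except ERCC scaling with 1 gene in each direction. Leaving out each library in turn gave 220 to 1029 higher and 172 to 919 lower over both arms, 60 to 180 and 27 to 176 in Tet minus, and 0 to 176 and 0 to 104 in Tet plus, lowest without Tet plus 3 h replicate 1 except in Tet minus (without its 6 h and 3 h replicate 2). Of 86 named genes past the threshold, 62 stayed past it without any 1 library. The ERCC share difference ranged from -0.965 to -0.194.

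ERCC scaling left 1 higher and 1 lower gene over both arms and 0 in each direction in either arm. The sign changed for 442 of the 1538 called genes. Among named genes, values above 0 on the log2 scale replaced falls for RFC2 (0.221), POLD1 (0.271), CHAF1B (0.05), SLBP (0.088), CHAF1A (0.26), FANCE (0.078), XRCC3 (0.201), PSMC3IP (0.295), DHCR7 (0.227), PFKL (0.204), SLC6A2 (0.008), UHRF1 (0.173) and SCARNA5 (0.19). The ERCC share differed between replicates at 3 h, and standard errors grew with it (0.522 for RFC2). Depth limits low genes such as small nucleolar RNAs at a few CPM.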

Other observations

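The genes here lie outside the lists and were named after their values were seen, so they stand for no gene group; of the 28 neuronal genes listed 1 fell. The Notch ligand DLL1 stood at 26.4 and 17.6 CPM at 3 h and 11.5 and 5.07 CPM at 6 h in Tet minus, and 41.6 and 21.9 CPM at 3 h and 16.8 and 13.6 CPM at 6 h in Tet plus (log2 fold change -1.22, SE 0.156, adjusted p = 0.000824, edgeR's quasi-likelihood test). NEUROG2, a proneural transcription factor, stood at 42.5 and 14.5 CPM at 3 h and 14.2 and 5.75 CPM at 6 h in Tet minus, and 55 and 11.9 CPM at 3 h and 25.4 and 6.89 CPM at 6 h in Tet plus (log2 fold change -1.21, SE 0.159, adjusted p = 0.00102), with replicate 1 far above replicate 2 in every group. ID4, an inhibitor of such factors, fell (-1.12), as did HES6 (-0.53) and INSM1 (-0.98; adjusted p = 0.000429, 0.0112 and 0.00298).

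Among unlisted genes that rose were CDCA2, a phosphatase regulator of mitotic chromatin, at 103 and 119 CPM at 3 h and 290.1 and 296 CPM at 6 h in Tet minus, and 103 and 111 CPM at 3 h and 244 and 215 CPM at 6 h in Tet plus (log2 fold change 1.25, SE 0.1, adjusted p = 5.11e-05), and the ubiquitin ligase G2E3 (log2 fold change 1.22, SE 0.0974, adjusted p = 5.11e-05). The netrin receptor UNC5C also rose (log2 fold change 1.30, SE 0.0948, adjusted p = 3.3e-05). It stood at 35.2 and 82.1 CPM at 3 h and 106 and 174 CPM at 6 h in Tet minus, and 61.4 and 113 CPM at 3 h and 144 and 280.4 CPM at 6 h in Tet plus, higher in replicate 2 than in replicate 1 in every group, so the groups overlapped although each pair rose.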
